A study of Mus musculus with 32 samples.

Results

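The genes described here encode core proteins of the spliceosome, the machine that removes introns from pre-mRNA. They were chosen by name: symbols that start with Snrp, Prpf, Sf3a or Sf3b, the Lsm genes named by a number (Lsm14 genes excluded) and Bud31. These were 46 of the 13175 genes measured, and all 46 enter the counts below. The study asks whether oocytes differ in their RNA when their follicle was first vitrified, that is, stored in a glass-like frozen state. Preantral follicles of wild-type (WT) mice, either vitrified beforehand or used fresh, grew in encapsulated culture, and RNA of 32 single oocytes was sequenced, 1 library per oocyte. Fully grown germinal vesicle (GV) oocytes were taken on day 8 (4 from fresh and 4 from vitrified follicles) and metaphase II (MII) oocytes on day 9, after ovulation was induced with hCG, a hormone that acts like the ovulatory surge (12 from each treatment). Ages and mice are not given in the sources used here, so p-values measure the spread between oocytes that may share a mouse or a culture.

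As background, the spliceosome is built on small nuclear RNAs, each packed with proteins into a particle (snRNP). A ring of 7 Sm proteins holds the U1, U2, U4 and U5 RNAs, a related ring of Lsm proteins holds U6, and further proteins belong to single particles: the U2 proteins SF3A and SF3B select the branch point, and Prpf proteins join U4, U6 and U5 into the tri-snRNP and drive activation. Transcription stops in the fully grown GV oocyte, and during maturation to MII stored mRNAs are translated or degraded, while their poly(A) tails lengthen or shorten. The library kit primes cDNA on poly(A), so tail length as well as mRNA amount can enter a value. CPM values, counts scaled to a common library total, are shares of a library and not amounts per cell.

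The 3′ ends of a few members are shown because the cytoplasmic polyadenylation element (CPE, read here as TTTTAT or TTTTAAT) and the polyadenylation signal (PAS, AATAAA or ATTAAA) lie there. Each line gives 30 bases of the GENCODE M21 transcript, 5′ to 3′ on the gene's strand (build GRCm38), with these motifs in capitals. The first 2 genes were higher in MII oocytes, the next 4 were lower, and Prpf8 is the central scaffold of the catalytic core.
Sf3b1, chr1:54985229-54985258, minus strand: tttttTTTTATattgtatTTTTAATatttg
Prpf39, chr12:65063354-65063383, plus strand: actgtaatccttAATAAAtgcttactaaca
Bud31, chr5:145148041-145148070, plus strand: gagatctgtaaaAATAAAacctttagacct
Snrpc, chr17:27851929-27851958, plus strand: gtgaaatgtgaaAATAAAgtcatcagctct
Lsm3, chr6:91522596-91522625, plus strand: aaATTAAAtttgatgtttccttTTTTATta
Lsm2, chr17:34985855-34985884, plus strand: tcccgcatcgggAATAAAacttatgatgca
Prpf8, chr11:75509418-75509447, plus strand: aacaaaatgtAATAAATTTTATaaatagtg

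Library totals ran from 5300203 to 17687247 counts. All 17 oocyte identity genes in the table were detected in every group. Markers of cumulus and granulosa cells (21 of 24 in the table) summed to 68.1 to 139 CPM in GV oocytes. They reached 5435 CPM in MII fresh replicate 11 and 862 in MII vitrified replicate 12, against medians of 101 and 123 in the fresh and vitrified MII groups. Of these markers Ptx3, Areg, Ereg and Btc were at 0 in all GV oocytes, and the 4 theca and stroma genes in the table summed to at most 16.9 CPM in any oocyte. MII fresh replicate 11 was the highest fresh MII oocyte for 9 of the 46 members. MII fresh replicate 2, with 102 CPM of cumulus and granulosa markers, was highest for 12. The part of cumulus and granulosa cells in the values below was not tested. Some values are also given without MII fresh replicate 11, and the fresh stage median also without 4 MII oocytes set aside for cumulus genes. GV values were whole numbers, while 11.7% to 19.7% of the values of each MII oocyte were not. Of the members, 23 (50.0%) were not whole in 1 or more MII oocytes, against 38.3% of all genes, where any departure counts. With departures over 0.05 only, these were 7 members (15.2%) and 16.3% of genes.

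Summed over all 46 members, the transcripts came to 7497 ± 1230 CPM in GV oocytes of fresh follicles and to 6917 ± 1443 CPM in those of vitrified ones (SD, n = 4 each). In MII oocytes the sums were 4554 ± 828.8 (fresh) and 4684 ± 795 CPM (vitrified, SD, n = 12 each). Per kb of exon, the highest of the members in GV oocytes by median level were Lsm10 (427 CPM per kb), Bud31 (402) and Snrpd1 (336). In MII oocytes they were Snrpd1 (123 CPM per kb), Sf3b1 (118) and Sf3a3 (115). Between the stages Bud31 went from rank 2 to rank 34 of the 46 per kb and Snrpd2 from rank 6 to rank 45, while Sf3b1 went from rank 20 to rank 2. The heat map of all members shows these stage differences beside the much smaller ones between treatments.

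**Figure D1:**
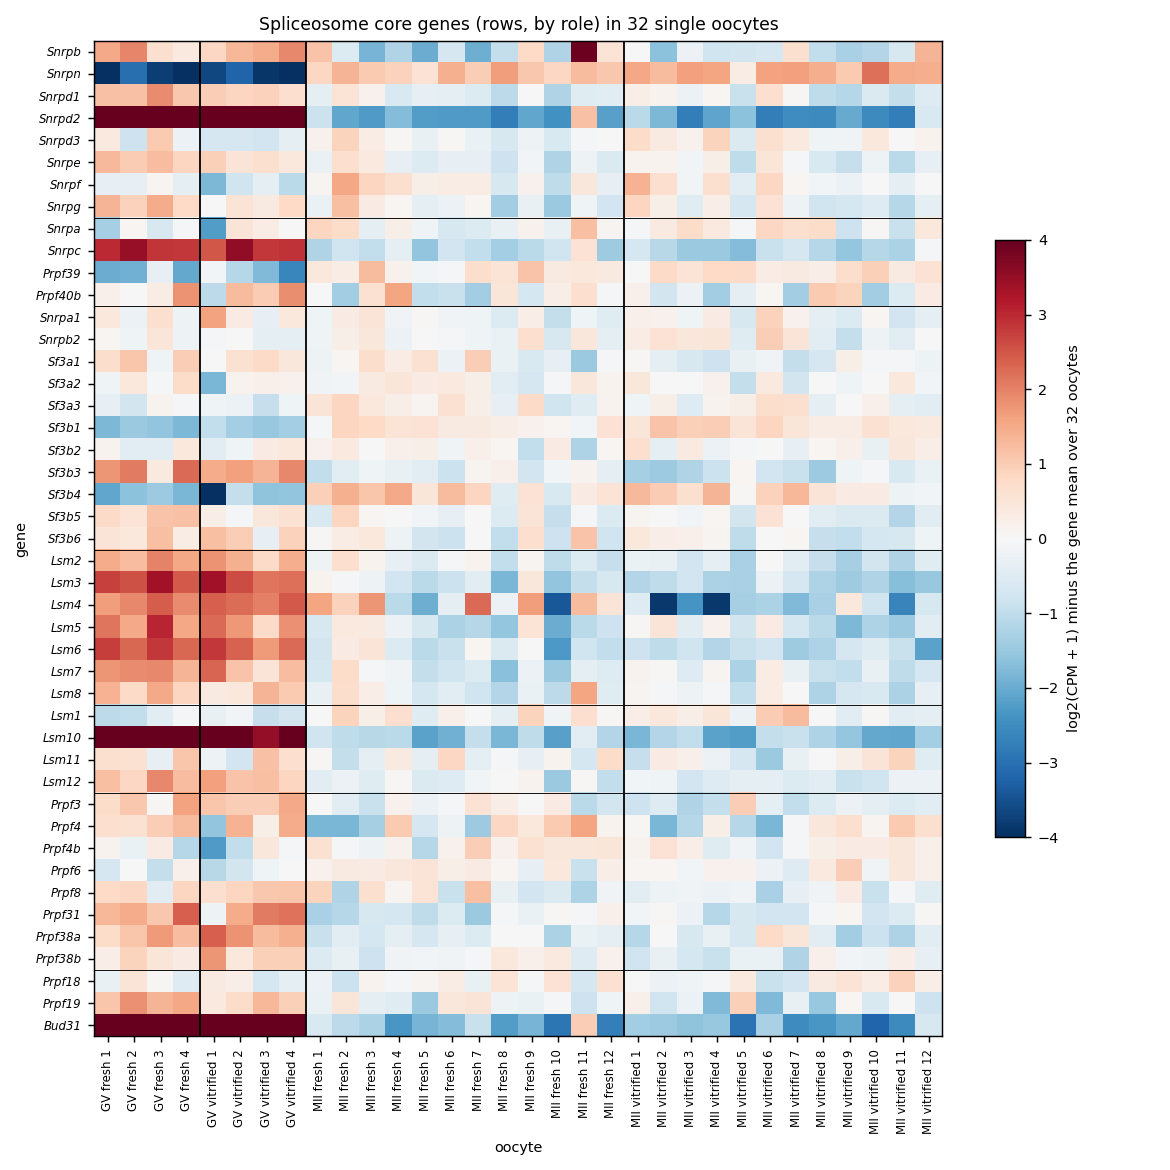
Each row is 1 of 45 members, ordered by role, and each column 1 of 32 oocytes; colour is log2(CPM + 1) minus the mean of the gene over all oocytes, cut at −4 and 4. Bud31, Snrpd2, Lsm10 and Snrpc are high in all 8 GV oocytes, Snrpn is low in all of them, and MII fresh replicate 11 stands out for Snrpb.

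Comparing MII with GV oocytes from fresh follicles, 21 members were lower and 6 higher (quasi-likelihood test of edgeR, Benjamini-Hochberg adjusted p under 0.05 over 11470 genes). Of all genes tested, 52.6% passed, 29.8% lower and 22.8% higher. From vitrified follicles 25 members were lower and 9 higher, against 33.7% and 23.3% of all genes (57.0% together). The median log2 fold change of the members was −0.75 in fresh and −1.001 in vitrified oocytes, beside −0.23 and −0.34 over all genes. The median over all genes depends on the scaling: it was −0.37 and −0.45 with RLE factors and −0.42 and −0.47 with DESeq2. Both treatments called 19 members lower and 6 higher, from different oocytes but in 1 fit. The share of all genes called in both treatments is not given here, so this overlap does not set the members apart. In fresh oocytes 16 members lay lower in every MII oocyte than in any GV oocyte, against 18.5% of all genes, and 5 lay higher, against 12.5%. In vitrified oocytes these numbers were 17 (20.7% of all genes) and 5 (13.2%). The stages differ in day, in exposure to hCG, in library numbers and in the kind of values deposited, and these cannot be told apart from maturation.

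**Figure D2:**
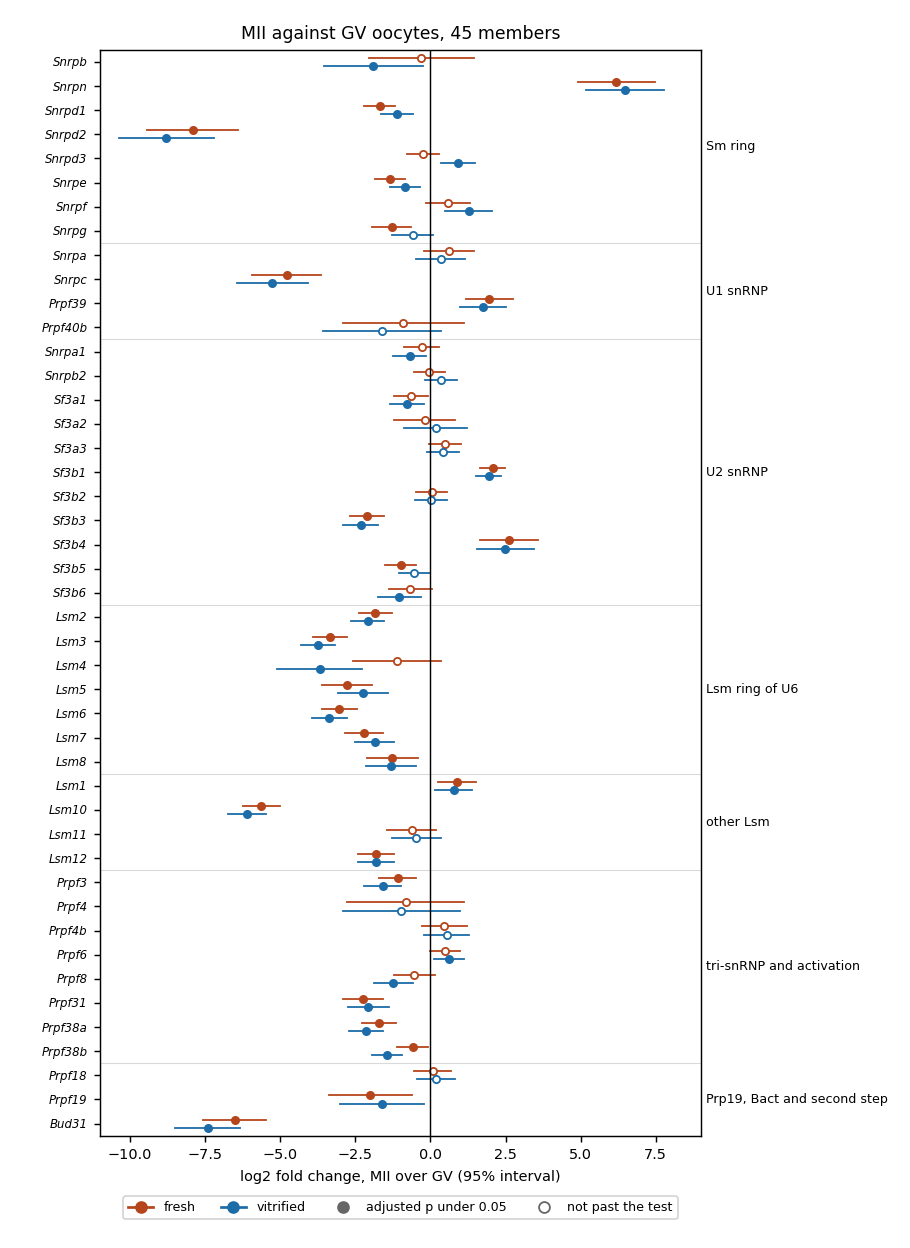
Log2 fold change of MII over GV for each of 45 members with its 95% interval, fresh in red and vitrified in blue; filled points passed an adjusted p of 0.05. All 7 members of the Lsm ring of U6 lie left of 0 in both treatments, and the largest rise is that of Snrpn. The share of all genes left of 0 is not given here.

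Among the Sm ring genes, which encode the proteins of the heptamer around U1, U2, U4 and U5 RNA, Snrpd2 (SmD2) had the largest fall of all members. Its GV levels were 420, 416, 545 and 350 CPM (fresh) and 543, 260, 465 and 312 CPM (vitrified). In MII oocytes its lowest, median and highest levels were 0, 0.473 and 14.4 CPM in fresh and 0, 0.405 and 3.43 CPM in vitrified oocytes. The groups did not overlap, and 1 fresh and 3 vitrified MII oocytes had no count of it. The log2 fold change was −7.91 ± 0.75 (SE, edgeR adjusted p = 5.88e-11) in fresh and −8.79 ± 0.78 (adjusted p = 1.2e-11) in vitrified oocytes. Without MII fresh replicate 11, which had the 14.4 CPM, the fresh value was −9.23. Snrpd2 lies on chromosome 7 (19149722 to 19153542, GRCm38, plus strand) and has transcripts of 2 pseudogenes at least 90% identical to it, to which reads could have been assigned.

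The other Sm genes changed less and not in 1 direction. Snrpd1 (SmD1) had 754, 763, 1249 and 708 CPM in fresh GV and 671, 610, 639 and 538 CPM in vitrified GV oocytes. In MII oocytes it ran from 146 through a median of 253 to 489 CPM (fresh) and from 152 through 260 to 537 CPM (vitrified). It fell (log2 fold changes −1.69 ± 0.26 and −1.11 ± 0.26, SE), and no MII oocyte reached the lowest GV oocyte of its treatment. Snrpe (SmE) had 460, 383, 438 and 340 CPM (fresh) and 362, 266, 295 and 252 CPM (vitrified) in GV oocytes. Its lowest, median and highest MII levels were 81.3, 149 and 295 CPM (fresh) and 88.8, 168 and 263 CPM (vitrified). It fell by 1.34 and 0.85 on the log2 scale, with overlap in vitrified oocytes alone. Snrpg (SmG), with MII levels of 38.6, 92.3 and 254 CPM (lowest, median and highest, fresh) and 49.4, 82.1 and 199 CPM (vitrified), fell by 1.29 in fresh oocytes, whereas its −0.59 in vitrified oocytes did not pass the test (edgeR adjusted p = 0.133). Snrpd3 (SmD3) and Snrpf (SmF) rose in vitrified oocytes, by 0.92 and 1.27, with values of −0.25 and 0.60 in fresh oocytes that did not pass. The MII levels of Snrpd3 were 121, 187 and 354 CPM (lowest, median and highest, fresh) and 126, 229 and 354 CPM (vitrified), and those of Snrpf 18.6, 47.1 and 116 CPM (fresh) and 28.6, 38.3 and 104 CPM (vitrified). All these overlapped the GV levels given with the treatment comparison. Both vitrified calls were lost when only MII libraries numbered 20 or higher were used. The difference between the treatments was tested as an interaction, which was not called for any member.

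Snrpb and its paralog Snrpn encode the SmB and SmN proteins, alternatives for the same place in the ring; Snrpn is imprinted and known for its expression in the brain. Counts of Snrpn in GV oocytes came to 5, 39, 6 and 0 in fresh and 8, 26, 10 and 3 in vitrified follicles, or at most 1.62 CPM. In MII oocytes its lowest, median and highest levels were 30.6, 43.5 and 67.4 CPM in fresh and 25.03, 60.3 and 96.5 CPM in vitrified oocytes. The stages did not overlap, and the log2 fold change was 6.20 ± 0.63 (SE, edgeR adjusted p = 2.79e-10) in fresh and 6.48 ± 0.64 (adjusted p = 1.14e-10) in vitrified oocytes. This size leaned on single GV oocytes, with 7.58 without GV fresh replicate 2 and 7.12 without GV vitrified replicate 2. On chromosome 7 (59982495 to 60140219, minus strand, GRCm38) the exons of Snrpn overlap those of Snurf and Gm38393 on the same strand, so the reads cannot be assigned to Snrpn alone. Its values were not whole in 14 of the 24 MII oocytes.

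Snrpb had 17.9, 24.6, 9.31 and 7.65 CPM in fresh GV oocytes and 10.7, 15.4, 17.5 and 23.98 CPM in vitrified ones. In fresh MII oocytes its median was 2.73 CPM, with a lowest of 0.659 and a highest of 98.0 CPM, and in vitrified MII oocytes its levels ran from 1.13 through a median of 3.06 to 15.8 CPM. MII fresh replicate 11 held the 98.0 CPM, while the other fresh MII oocytes reached at most 13.4, so the fresh groups overlapped. Its fresh log2 fold change of −0.30 ± 0.86 (SE) did not pass (edgeR adjusted p = 0.798), and it was −1.78 (adjusted p = 0.0142) without that oocyte. The fall of 1.90 in vitrified oocytes passed narrowly (adjusted p = 0.0462) and was lost when any 1 of 20 of the 32 oocytes was left out. Of the counts of this pair, Snrpn held 0% to 7.81% in GV oocytes and 34.0% to 98.3% in MII oocytes.

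Among U1 snRNP genes, Snrpc (U1-C, which helps U1 bind the 5′ splice site) fell most. GV levels were 25.7, 36.1, 23.04 and 22.8 CPM in fresh and 17.8, 38.5, 22.8 and 23.9 CPM in vitrified oocytes. MII levels ran from 0.110 through a median of 0.698 to 3.99 CPM (fresh, replicate 11 highest) and from 0 through 0.527 to 2.16 CPM (vitrified). All MII oocytes lay below all GV oocytes, with log2 fold changes of −4.79 ± 0.57 (SE, edgeR adjusted p = 9.11e-09) in fresh and −5.26 ± 0.58 (adjusted p = 1.55e-09) in vitrified oocytes. Transcripts of 8 pseudogenes are at least 90% identical to Snrpc, which makes its counts uncertain.

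Prpf39, a homolog of a yeast U1 protein that acts in 5′ splice site recognition, rose. It had 8.14, 8.44, 27.6 and 7.70 CPM in fresh and 32.4, 15.2, 9.62 and 4.92 CPM in vitrified GV oocytes, against MII levels of 32.2, 46.3 and 84.4 CPM (lowest, median and highest, fresh) and 35.6, 52.0 and 67.9 CPM (vitrified). It rose by 1.96 ± 0.38 and 1.74 ± 0.38 (SE), and by 2.66 without GV fresh replicate 3 and 2.40 without GV vitrified replicate 1, the GV oocytes where it was highest. Its exons overlap Fkbp3 on the other strand, and 16 of 24 MII values were not whole. Snrpa (U1-A) and the low Prpf40b did not pass in either treatment.

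**Figure D3:**
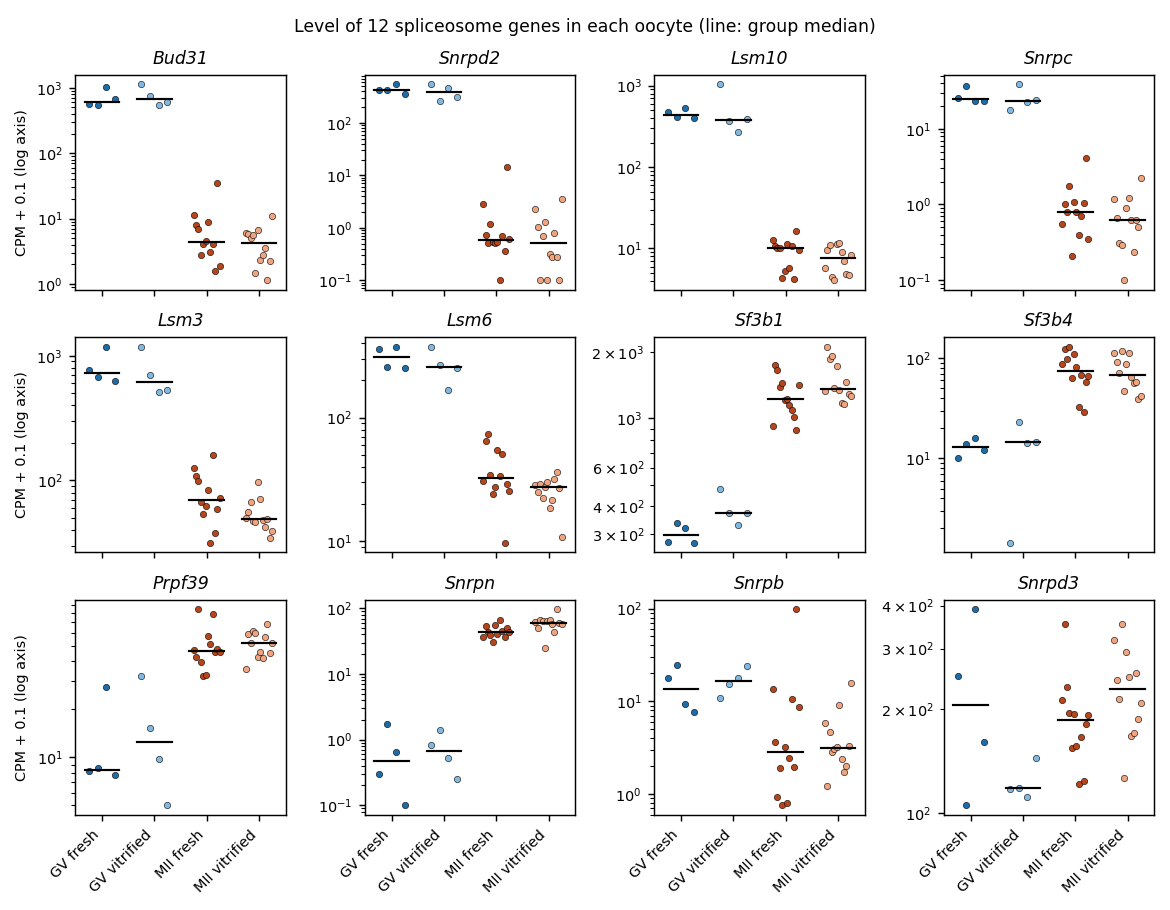
CPM + 0.1 on a log axis for 12 members, 1 point per oocyte, with a line at the group median. Points of MII oocytes lie below all GV points for Bud31, Snrpd2, Lsm10, Snrpc, Lsm3 and Lsm6 and above them for Sf3b1, Sf3b4 and Snrpn and, within each treatment, for Prpf39; Snrpb and Snrpd3 overlap between stages.

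The U2 snRNP genes moved in both directions. Sf3b1, the large SF3B subunit that clamps the branch site, had 275, 338, 319 and 274 CPM in fresh and 480, 373, 331 and 374 CPM in vitrified GV oocytes. In MII oocytes it ran from 887 through a median of 1223 to 1738 CPM in fresh and from 1167 through 1359 to 2110 CPM in vitrified oocytes. These groups did not overlap, and Sf3b1 rose 4.19-fold in fresh (log2 2.07 ± 0.21, SE, edgeR adjusted p = 1.98e-10) and 3.86-fold in vitrified oocytes (1.95 ± 0.20, adjusted p = 4.95e-10). Its values were not whole in 21 of the 24 MII oocytes. Sf3b4, which binds pre-mRNA near the branch point, had 9.96, 13.8, 15.8 and 12.1 CPM in fresh and 1.34, 22.8, 14.3 and 14.5 CPM in vitrified GV oocytes. In MII oocytes its lowest, median and highest levels were 29.2, 75.1 and 130 CPM (fresh) and 39.3, 67.8 and 117 CPM (vitrified). It rose without overlap (log2 2.61 ± 0.47 and 2.50 ± 0.47, SE). Its exons overlap Gm17690 on the other strand, and 13 of 24 MII values were not whole.

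Sf3b3, a scaffold of SF3B, went the other way. It had 94.3, 118, 35.8 and 134 CPM in fresh and 78.2, 86.1, 71.5 and 105 CPM in vitrified GV oocytes, and MII medians of 21.6 and 15.0 CPM. No MII oocyte overlapped the GV oocytes of its treatment, and the falls were 2.11 ± 0.28 and 2.33 ± 0.28 on the log2 scale (SE, edgeR adjusted p = 1.05e-07 and 1.14e-08). Its exons overlap Cog4 on the other strand. The small subunit gene Sf3b5 fell by 0.99 in fresh oocytes, and its vitrified value of −0.54 did not pass (edgeR adjusted p = 0.0731). Sf3b6 (branch-point protein p14), Sf3a1 (an SF3A subunit) and Snrpa1 (U2-A′) fell in vitrified oocytes by 1.04, 0.78 and 0.69. Their fresh values of −0.67, −0.65 and −0.29 did not pass (edgeR adjusted p = 0.113, 0.0514 and 0.401). In MII oocytes the lowest, median and highest levels of Sf3b5 were 73.1, 130.1 and 253 CPM (fresh) and 60.5, 116 and 209 CPM (vitrified), and those of Snrpa1 62.0, 108 and 174 CPM (fresh) and 70.04, 116 and 227 CPM (vitrified), all overlapping GV levels. Of the vitrified calls, those of Sf3b6 and Snrpa1 were lost without GV vitrified replicate 1 and that of Sf3a1 without GV vitrified replicate 2 or 3, while Sf3b6 passed in fresh oocytes (−0.84, adjusted p = 0.0320) without MII fresh replicate 11. Snrpb2 (U2-B″) had 314, 264, 422 and 257 CPM (fresh) and 288, 297, 229 and 230 CPM (vitrified) in GV oocytes, and MII levels of 192, 273 and 474 CPM (lowest, median and highest, fresh) and 153, 329.9 and 594 CPM (vitrified), which overlapped. Snrpb2, Sf3a2, Sf3a3 and Sf3b2 passed in neither treatment, with log2 fold changes between −0.20 and 0.48.

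In the Lsm ring, Lsm2 to Lsm8, which binds the 3′ end of U6 RNA, 6 of 7 members fell in fresh and 7 of 7 in vitrified oocytes. Of all genes tested, 29.8% were lower in fresh and 33.7% in vitrified oocytes. The medians of the ring were −2.21 and −2.24, and those over all genes are given with the stage comparison. Lsm3 had 773, 670, 1180 and 625 CPM in fresh and 1176, 700, 509 and 532 CPM in vitrified GV oocytes. It ran from 31.6 to 159 CPM (median 69.5) in fresh and from 34.5 to 97.0 CPM (median 48.6) in vitrified MII oocytes. Every MII oocyte lay below every GV oocyte, and the log2 fold changes were −3.35 ± 0.28 (SE, edgeR adjusted p = 2.61e-12) and −3.76 ± 0.28 (adjusted p = 1.48e-13). Lsm6 had 358, 257, 373 and 254 CPM in fresh and 371, 267, 168 and 251 CPM in vitrified GV oocytes, with MII levels of 9.64, 32.3 and 73.1 CPM (lowest, median and highest, fresh) and 10.8, 27.2 and 36.5 CPM (vitrified). It fell by 3.03 ± 0.29 and 3.36 ± 0.29 (SE), without overlap, and 4 pseudogenes carry transcripts at least 90% identical to it.

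Lsm2 had 69.5, 58.2, 98.7 and 73.6 CPM (fresh) and 87.8, 67.5, 42.5 and 68.3 CPM (vitrified) in GV oocytes, above all MII oocytes. Lsm2, Lsm5 and Lsm7 fell by 1.84 to 2.79 on the log2 scale, and Lsm8, the subunit that sets the nuclear ring apart from the cytoplasmic one, by 1.26 in fresh and 1.31 in vitrified oocytes. Lsm4 was the exception in fresh oocytes. Its GV levels were 45.5, 54.3, 76.8 and 53.2 CPM in fresh and 75.9, 67.5, 58.7 and 79.0 CPM in vitrified oocytes, and its fresh MII levels spread from 0.402 to 69.7 CPM around a median of 23.1. That fresh difference of −1.12 ± 0.72 (SE) did not pass (edgeR adjusted p = 0.196). In vitrified MII oocytes Lsm4 ran from 0 to 18.5 CPM (median 4.86), below all GV oocytes, with −3.68 ± 0.70 on the log2 scale (SE, edgeR adjusted p = 2.98e-05).

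Of the Lsm genes outside that ring, Lsm1, whose protein replaces Lsm8 in the cytoplasmic ring that takes part in mRNA decay, had 38.8, 40.1, 58.7 and 76.4 CPM (fresh) and 65.5, 75.1, 42.3 and 47.9 CPM (vitrified) in GV oocytes. Its MII levels were 57.1, 88.2 and 151 CPM (lowest, median and highest, fresh) and 58.3, 89.2 and 194 CPM (vitrified), overlapping GV. It rose by 0.88 ± 0.31 in fresh and 0.78 ± 0.31 in vitrified oocytes (SE, edgeR adjusted p = 0.0164 and 0.0307). The fresh call was lost without GV fresh replicate 1 or 2 and the vitrified call without GV vitrified replicate 3 or 4 or MII vitrified replicate 6 or 7. Lsm10 and Lsm11 belong to the Sm-like ring of U7, the snRNP that cuts histone pre-mRNA. Lsm10 had 475, 409, 527 and 397 CPM in fresh and 1039, 368, 268 and 395 CPM in vitrified GV oocytes. It ran from 4.15 to 16.3 CPM (median 9.97) in fresh and from 3.97 to 11.6 CPM (median 7.56) in vitrified MII oocytes, far below all GV oocytes. The falls of 5.63 ± 0.31 (SE, edgeR adjusted p = 1.19e-16) and 6.11 ± 0.31 (adjusted p = 1.77e-17) had the smallest p of all members. Without GV vitrified replicate 1 the vitrified log2 fold change was −5.49. Lsm11 did not pass (−0.62 and −0.47). Lsm12, an Lsm-domain protein, had log2 fold changes of −1.800 in fresh and −1.82 in vitrified oocytes, both called.

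Among genes of the tri-snRNP and of activation, Prpf31 and Prpf3, which bind the U4/U6 RNA duplex, fell by 2.25 and 1.09 in fresh and by 2.07 and 1.59 in vitrified oocytes. Prpf31 had 38.2, 42.7, 32.5 and 81.1 CPM (fresh) and 12.8, 43.1, 64.9 and 69.5 CPM (vitrified) in GV oocytes, and MII levels of 4.67, 9.40 and 17.1 CPM (lowest, median and highest, fresh) and 6.08, 11.1 and 15.5 CPM (vitrified), with overlap in vitrified oocytes alone. Prpf38a, needed for activation, fell by 1.71 ± 0.28 and 2.15 ± 0.27 (SE) without overlap, from 130, 168, 256 and 183 CPM in fresh and 413, 274, 190 and 209 CPM in vitrified GV oocytes to MII levels of 31.7, 57.9 and 77.3 CPM (lowest, median and highest, fresh) and 29.1, 53.1 and 132 CPM (vitrified). Its relative Prpf38b had 52.1, 82.1, 60.7 and 55.3 CPM (fresh) and 152, 58.4, 85.1 and 84.6 CPM (vitrified) in GV oocytes. Its MII levels were 23.8, 39.99 and 58.7 CPM (lowest, median and highest, fresh) and 18.3, 35.5 and 52.1 CPM (vitrified), with overlap in fresh oocytes alone. It fell by 0.59 in fresh and 1.46 in vitrified oocytes, the fresh call being lost when any 1 of 14 oocytes was left out. Prpf8, which holds the catalytic RNA, had 122, 123, 50.0 and 127 CPM in fresh and 112, 127, 146 and 150 CPM in vitrified GV oocytes. Its MII levels ran from 28.6 to 159 CPM (median 59.0) in fresh and from 27.6 to 86.9 CPM (median 59.5) in vitrified oocytes. It overlapped in fresh oocytes, where −0.54 ± 0.34 (SE) did not pass (edgeR adjusted p = 0.181), and fell by 1.23 ± 0.33 without overlap in vitrified ones (adjusted p = 0.00155). Prpf6, a bridge between U5 and U4/U6, rose by 0.62 in vitrified oocytes, a call that was lost without GV vitrified replicate 1 or 2; its fresh value was 0.50. Prpf4 and the kinase gene Prpf4b did not pass.

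Bud31, a protein of the activated spliceosome, had 555, 549, 1016 and 676 CPM in fresh and 1128, 745, 551 and 616 CPM in vitrified GV oocytes. In MII oocytes its lowest, median and highest levels were 1.47, 4.28 and 35.3 CPM in fresh and 1.05, 4.22 and 10.8 CPM in vitrified oocytes. All MII oocytes lay below all GV oocytes, and MII fresh replicate 11 held the highest of them. The log2 fold changes were −6.52 ± 0.51 (SE, edgeR adjusted p = 7.63e-13) in fresh and −7.42 ± 0.53 (adjusted p = 6.29e-14) in vitrified oocytes, and −7.09 in fresh oocytes without that replicate. Bud31 lies on chromosome 5 (145140362 to 145148078, plus strand, GRCm38), and its exons overlap those of Ptcd1 on the other strand. Prpf19, the ubiquitin ligase of the Prp19 complex, was low in all groups (median 6.89 CPM in GV and 1.81 CPM in MII oocytes). It fell by 2.00 in fresh and 1.62 in vitrified oocytes, the latter call being lost when any 1 of 14 oocytes was left out. The second-step factor gene Prpf18 did not pass (0.08 and 0.19).

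Other genes of splicing and of related steps were taken from lists that the naming rule does not hold. Beside them, of all genes tested 22.8% were higher and 29.8% lower in fresh, and 23.3% and 33.7% in vitrified oocytes. Of 13 SR proteins, which mark exons, 12 were tested, and 7 were higher and 2 lower in fresh MII oocytes (median 0.92), with 6 and 3 in vitrified ones (0.76). Srsf3 rose by 1.53 ± 0.24 and 1.70 ± 0.24 (SE). Of 7 genes listed for U7 and histone pre-mRNA processing, 5 were higher and 1 lower in each treatment (medians 1.96 and 1.92). Lsm10 and Lsm11 of the U7 ring are not in that list, and neither was called higher. Slbp, which binds the histone stem-loop, rose from 1001 ± 581 to 7292 ± 1649 CPM in fresh oocytes (SD, n = 4 and 12), whereas Lsm10 of the same pathway fell. Of 11 decapping partners of the cytoplasmic Lsm ring, 6 were higher and 1 lower in fresh and 4 and 1 in vitrified oocytes (medians 1.17 and 0.81).

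The remaining lists had medians below 0 in fresh oocytes, but so had all genes tested, so the sign alone does not set a list apart. For the minor (U12) spliceosome 1 of 11 was higher and 6 lower in fresh, and 0 and 8 in vitrified oocytes (medians −2.16 and −1.56), with Scnm1 at −6.22 ± 0.58 and Zcrb1 at −3.10 ± 0.23 (SE) in fresh oocytes. In the list of snRNP assembly, 2 of 15 were higher and 6 lower in fresh and 3 and 5 in vitrified oocytes (medians −0.85 and −0.56). There Gemin7, of the SMN complex that loads Sm rings, fell by 5.03 and 5.33, and Snupn, which imports snRNPs, by 5.41 and 5.57. Early and U2-associated factors had 2 higher and 9 lower of 18 in fresh and 2 and 8 in vitrified oocytes, among them Sf1, the branch-point binding protein, at −2.64 and −2.997. Tri-snRNP factors outside the rule had 4 higher and 8 lower of 16 in each treatment, with Usp39 at −3.32 and −3.41 and Mfap1b at 4.94 and 5.11. Prp19 complex and catalytic-step factors were split, at 7 higher and 9 lower of 26 in fresh and 6 and 8 in vitrified oocytes (medians −0.32 and 0.05). There Ppie, a peptidyl-prolyl isomerase, was at −5.80 and −6.61 and Cdc40 at 1.87 and 2.37. Of 9 exon junction complex genes 1 was higher and 4 lower in fresh, and 1 and 3 in vitrified oocytes, with Rbm8a at −3.78 and −4.26 and Rnps1 at 3.02 and 3.91.

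Sequence and value features of the members were set beside the fresh stage change. The last 150 bases of the longest transcript held a CPE, searched on the sense strand only, in 15 of 46 members (32.6%), against 25.6% of 11110 genes tested, and a PAS stood in the last 40 bases of 32 members (69.6%), against 78.1%. The 2 motifs can share bases, as in Lsm7. Members with a CPE had a median log2 fold change of −0.54 and those without one of −1.09, while all genes had 0.43 with and −0.46 without. Of the 6 higher members 3 held a CPE (Sf3b1, shown above, and Lsm1 among them), and of the 21 lower members 4 did, Lsm3 among them. The 10 members with the shortest transcripts (494 to 943 bases) had a median of −1.76, and across the 46 members the correlation of log2 transcript length with the change was r = 0.37 (Spearman 0.39), beside 0.23 (0.21) for exon length over 11373 genes, all from the same libraries. Members whole in all MII oocytes had a median of −1.26 (13 lower and 1 higher of 23), beside −0.84 over all such genes, of which 36.1% were lower and 10.5% higher. For the 23 that were not whole it was −0.29 (8 lower and 5 higher), beside 0.48 over all such genes, of which 21.2% were lower and 39.4% higher. The part of these features in the stage change was not tested.

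**Figure D4:**
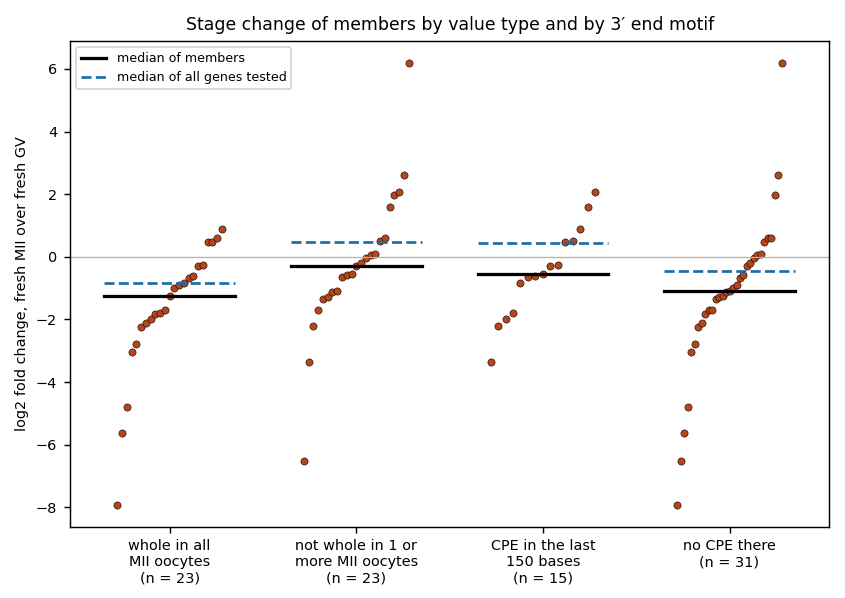
Log2 fold change of fresh MII over fresh GV for the 46 members, split by whether their MII values are whole and by whether a CPE stands in the last 150 bases; black lines are medians of members and dashed blue lines medians of all genes tested in the same class. Medians of members lie below those of all genes in each class.

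Between vitrified and fresh GV oocytes, edgeR called 0 of 45 members tested and 0.0% of 10831 genes. At an unadjusted p under 0.05 there were 2 members with edgeR and 2 with DESeq2, which also called 0. The share of all genes at that threshold is not given here or below, so such counts do not set the members apart. The members' median was −0.11, beside 0.00243 over all genes, and 6 of 7 Sm genes tested lay below 0 (median −0.48). The share of all genes below 0 is not given here, so this count does not set the Sm genes apart. The signs of Snrpd2 and Snrpb each changed in 2 of 15 alternative runs. Snrpd3 had 249, 105, 390 and 161 CPM in fresh and 118, 118, 111 and 144 CPM in vitrified oocytes, which gave −0.87 ± 0.37 on the log2 scale (SE, edgeR, unadjusted p = 0.0368). Snrpg had 285, 211, 312 and 192 CPM in fresh and 112, 161, 141 and 194 CPM in vitrified oocytes, at −0.71 ± 0.29 (unadjusted p = 0.0301). Both overlapped between treatments, and the value of Snrpd3 was −0.49 without GV fresh replicate 3.

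Only Snrpd1 and Snrpf of the 45 lay lower in every vitrified than in every fresh GV oocyte, where 1.36% of all genes did. Snrpf had 30.5, 30.6, 41.9 and 30.1 CPM in fresh and 10.5, 22.04, 29.7 and 17.7 CPM in vitrified oocytes, at −0.72 ± 0.39 (SE, unadjusted p = 0.0885 by edgeR). Its closest pair, 30.1 and 29.7 CPM, was nearly equal. Sf3b5 had 234, 203, 307 and 313 CPM in fresh and 165, 134, 190.0 and 209 CPM in vitrified oocytes, at −0.58 ± 0.28 with overlap, and Snrpd1 and Snrpe were at −0.48 ± 0.28 and −0.45 ± 0.27 (SE). The value of Snrpd1 was −0.26 without GV fresh replicate 3. Of the differences above 0, Prpf38b (0.63 ± 0.35) and Prpf38a (0.58 ± 0.33) had the smallest p. Sf3b1 was at 0.39 ± 0.26 and Lsm4 at 0.31 ± 0.30. Snrpa1, with 162, 102, 187 and 104 CPM in fresh and 366, 152, 96.1 and 160.4 CPM in vitrified oocytes, was at 0.50 ± 0.41. Bud31 was at 0.14 ± 0.33 and Prpf8 at 0.35 ± 0.33 (SE). The 95% interval lay within a 2-fold change either way for 19 of 45 members (42.2%, against 18.9% of all genes), so such a change was not excluded for the other 26. GV fresh replicate 3 was the highest fresh GV oocyte for 24 of the 46 members and GV vitrified replicate 1 the highest of its group for 19. The members' median was −0.0017 without the former, and it was 0.0059 without GV vitrified replicate 3.

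**Figure D5:**
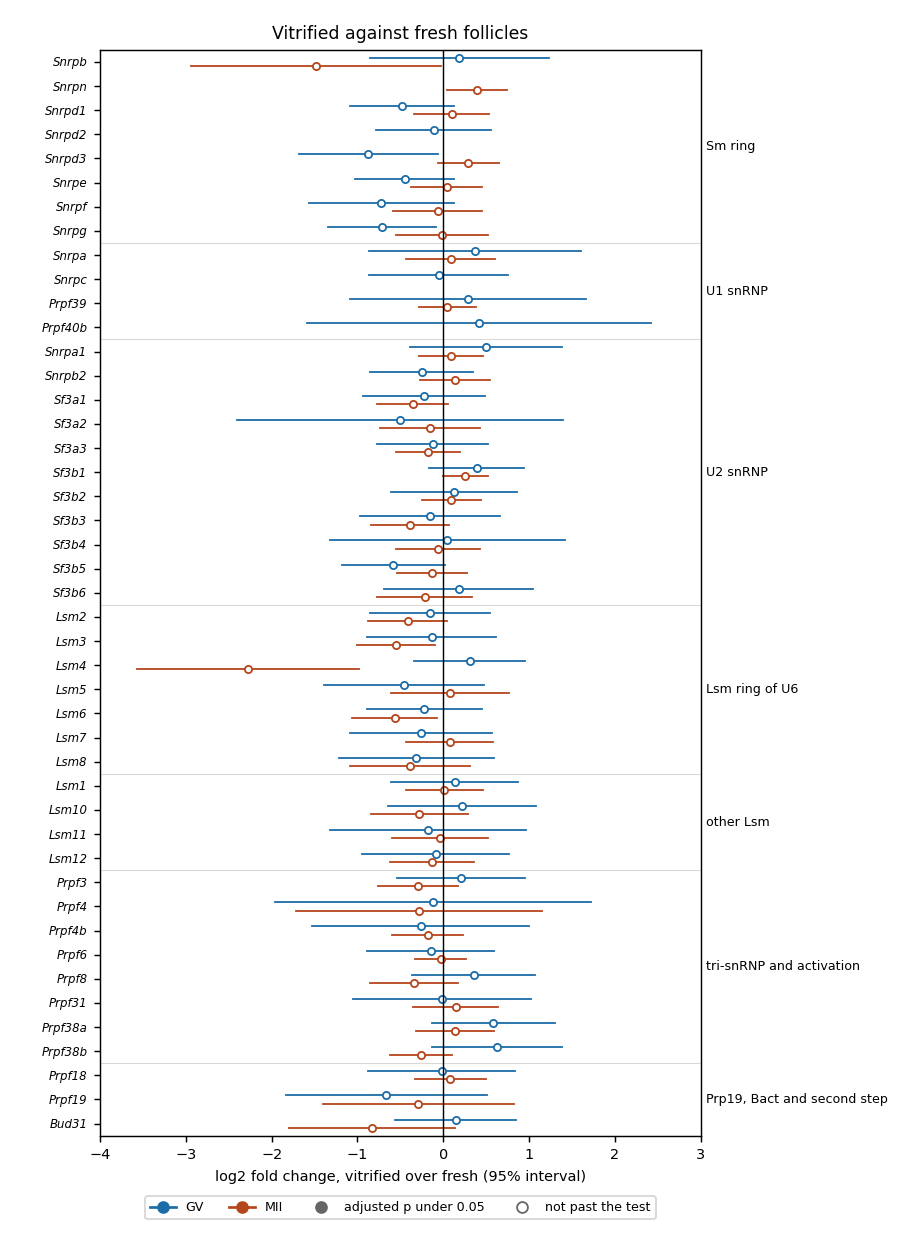
Log2 fold change of vitrified over fresh for members tested, with the 95% interval, in GV (blue) and MII (red) oocytes. No point is filled, since no member passed an adjusted p of 0.05; the interval is within a 2-fold change for 19 of 45 members in GV and 35 of 43 in MII oocytes.

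Between vitrified and fresh MII oocytes, edgeR again called 0 of 43 members and 0.0% of 8428 genes. At an unadjusted p under 0.05 by edgeR there were 5 members (share of all genes not given). DESeq2 called 52 genes and 0 members (5 unadjusted). The members' median was −0.10, beside −0.05 over all genes. Lsm4, described above, had the smallest p: its medians of 23.1 and 4.86 CPM gave −2.27 ± 0.63 (SE, unadjusted p = 0.00122 and adjusted p = 0.197 by edgeR), with overlapping groups. The value was −3.04 in library numbers under 20 and −1.47 in numbers of 20 and over. Lsm2 ran from 11.6 through a median of 20.1 to 39.8 CPM (fresh) and from 9.19 through 15.6 to 24.6 CPM (vitrified), at −0.41 ± 0.23. Of the differences above 0, Snrpn had the smallest p, at 0.39 ± 0.17 (SE, edgeR, unadjusted p = 0.0286), then Sf3b1 at 0.26 ± 0.13 and Snrpd3 at 0.29 ± 0.17, followed by Snrpb2, Prpf38a and Prpf31 between 0.13 and 0.14. Below 0, Lsm3 was at −0.55 ± 0.22 and Lsm6 at −0.57 ± 0.24 (SE). Snrpb, at −1.48 ± 0.71, was at 0.10 without MII fresh replicate 11. Bud31 was at −0.83 ± 0.47, and at −0.20 without that oocyte, and Prpf8 at −0.34 ± 0.25 (SE). The interval lay within a 2-fold change for 35 of 43 members (81.4%, against 63.8% of all genes). Snrpd2, Snrpc and Prpf40b were too low for this test. No member tested had groups that did not overlap, as for 0.0% of all genes.

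The interaction of stage with treatment asks whether the stage change differed between fresh and vitrified follicles. It was called by edgeR for 0 of 46 members and 0.0% of 11470 genes. At an unadjusted p under 0.05 there were 3 members in edgeR, DESeq2 and limma-voom alike (share of all genes not given). DESeq2 and limma-voom called 0 members, while of all genes DESeq2 called 8 and limma-voom 0. Snrpd3 had the smallest p, at 1.17 ± 0.38 (SE, unadjusted p = 0.00382, adjusted p = 0.91 by edgeR). Lsm4 was at −2.56 ± 1.11 and Prpf38b at −0.86 ± 0.37 (SE). So stage calls made in 1 treatment alone, such as those of Snrpd3, Lsm4 and Prpf8, were not shown to differ between treatments.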

How the data were processed

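Each oocyte gave 1 SMART-Seq v4 library, per the labels' protocols; per the submitters' processing notes, HISAT2, featureCounts and build mm10 were used (no versions given). The deposited GV values are whole counts. The deposited MII values were treated like estimated counts (expected counts), since some are not whole; the sources used here do not state the step behind this. All values were rounded. The table had 13202 entries, of which 27 exact repeats were removed. Library sizes were scaled with TMM and low genes left out with filterByExpr. Comparisons used the two-sided quasi-likelihood F test of edgeR 4.0.16 (R 4.3.3): treatments within a stage, and stages and their interaction in 1 fit of 32 oocytes with 4 group means. DESeq2 1.42.0 and limma 3.58.1 were alternatives. The edgeR steps were tested on simulated data. GENCODE M21 (GRCm38) held 13059 of the 13175 symbols, and near-identical transcripts (at least 90% over 200 bases) were found with BLAST 2.17.0. All members may be named. Every GV value and MII range is given for up to 6 members with the smallest p per direction in each treatment and stage comparison. The same is given for Bud31 and Prpf8. This rule was not carried through for the interaction. Of each other list up to 3 genes are named. The members and lists were chosen with earlier results of these data known. The values of 1 member are not reported here; it stays in the counts, medians and sums.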

Additional observations from a re-analysis of the deposited data

Results flagged for a closer look

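In 92 sets of 4 GV oocytes (46 members in 2 treatments), the highest or lowest oocyte stood far from the other 3 in 9. Chance gives about 1 in 20 such sets if they are independent. These sets share the same GV oocytes and are not independent, so an excess over chance was not shown. Of the 9, GV fresh replicate 3 held 5: it was highest for Snrpd1 (1249 CPM), Snrpf (41.93 CPM), Prpf39 (27.64 CPM) and Sf3b6 (54.55 CPM) and lowest for Prpf8 (50.03 CPM). GV fresh replicate 4 was highest for Prpf40b (8.135 CPM). GV vitrified replicate 1 was lowest for Sf3a2 (0.1789 CPM) and highest for Lsm10 (1039 CPM), and GV vitrified replicate 3 was lowest for Sf3a3 (149.1 CPM). Groups of 12 MII oocytes were not screened in this way.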

How the results depend on the processing

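No direction of a called member or of a stage count reversed under any alternative run. With only genes whole in all oocytes, which left 23 members, 10 were lower and 4 higher (Snrpf, Sf3a3, Lsm1 and Prpf4b) in fresh MII oocytes (median −0.50; 23.6% and 18.7% of all 6307 genes, median −0.00076), where 13 and 1 of these 23 were called among all genes, and in vitrified ones 10 were lower and 5 higher (median −0.79; 27.7% and 20.4% of all genes, median −0.16). The fresh median was −0.98 without 4 MII oocytes set aside for cumulus genes (fresh replicates 1 and 11, vitrified replicates 1 and 12). They were not the 4 highest in summed cumulus and granulosa markers. MII vitrified replicate 7, at 237 CPM, was kept, against 196 CPM in fresh and 172 CPM in vitrified replicate 1. The vitrified median was −0.84 with library numbers under 20. Leaving out each oocyte in turn gave 20 to 22 members lower, 5 to 7 higher and medians from −0.99 to −0.66 in fresh oocytes, and 21 to 26 lower, 8 to 9 higher and medians from −1.08 to −0.92 in vitrified ones. For treatment, 0 members were called each time, with medians from −0.13 to 0.0059 in GV, from −0.16 to −0.042 in MII oocytes and from −0.19 to −0.047 for the interaction.

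Replicate numbers did not pair the oocytes: 2 of 4 GV and 6 of 12 MII pairs correlated above 0.1, and 1 and 0 of them best with their own number. Replicate numbers differ from library numbers: library number 82 is GV fresh replicate 2 and GV vitrified replicate 1. Pairing by library number was not tested, so a shared mouse or culture is not addressed by this check or by the block below. With the replicate number as a block, 20 members were lower and 7 higher in fresh oocytes. In vitrified oocytes 19 were lower and 8 higher (medians −0.81 in fresh and −0.76 in vitrified). For treatment and interaction 0 were called with this block.

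Calls held in all alternatives for 17 of 21 lower and 5 of 6 higher members in fresh oocytes, the exceptions being Sf3b5, Lsm8, Prpf38b, Prpf19 and Lsm1. In vitrified oocytes 18 of 25 and 5 of 9 held, all but Snrpb, Snrpe, Snrpa1, Sf3a1, Sf3b6, Lsm8, Prpf19, Snrpd3, Snrpf, Lsm1 and Prpf6. With 4 GV oocytes per treatment, intervals are wide, and members near 1 CPM, such as Snrpd2 in MII oocytes, rest on a few counts.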
